A study of Mus musculus with 2 samples.

Results

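The complement system was examined here as 31 of the 32287 features measured, namely the components, regulators and receptors of complement named on a list: C1qa, C1qb, C1qc, C1ra, C1s1, Masp1, Colec12, Fcna and Fcnb (initiation), C2, C4b, C3, Cfb, Cfd and Cfp (central steps and amplification), C6 and C7 (terminal), Serping1, Cfi and Clu (soluble regulators), Cd55, Cd59a, Cd46, Cr1l and Vsig4 (membrane regulators), and C3ar1, C5ar1, C5ar2, Itgam, Itgax and Itgb2 (receptors). The members were chosen by name, and their levels were compared between classes of cells that were gated with marker genes, none of which is a complement gene. The study asked how Schwann cells resident in muscle, with their neighbours, respond to loss and remodeling of the neuromuscular junction. Its reporter mice, S100GFPtg, carry GFP under S100 regulatory sequence, which labels Schwann cells. The library analysed held live GFP+ (GFP+ PI-) cells sorted from digested tibialis anterior and gastrocnemius muscle of male mice about 2 months old, 7 days after sciatic nerve crush (7 dpi), and was read with droplet single-cell RNA-Seq. The series text speaks of a single crushed mouse, the methods of pooled male mice, and the number of animals behind the library could not be settled. The mice were wild type at Sod1, and no uninjured GFP+ library is compared here, so every comparison is between cell classes within 1 library and carries no test between conditions.

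Complement is a set of proteins that tags cells and debris for removal. C1q, built from the products of C1qa, C1qb and C1qc, binds a surface and activates the proteases C1r and C1s, which cleave C4 and C2 (the classical pathway). Mannose-binding lectins and ficolins do the same through the MASP proteases (the lectin pathway), and factor B, factor D and properdin amplify the deposition of C3 (the alternative pathway). Late components such as C6 and C7 build a membrane pore, regulators on cells or in fluid limit each step, and the fragments C3a and C5a call leukocytes through their receptors. The liver makes most circulating complement, while C1q is known as a product of macrophages and dendritic cells. In injured peripheral nerve, complement marks myelin debris for uptake by macrophages.

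The library held 36400 barcodes, 170648616 unique molecular identifiers (UMIs, 1 per captured RNA molecule) and a median of 2130 UMIs per barcode. Of 8894 barcodes with at least 5000 UMIs, 8701 had over 200 genes and under 10% mitochondrial counts and were kept (median 11624 UMIs). The gates placed 6042 in a myeloid lineage, 1574 in a stromal lineage, 250 with satellite cells and myoblasts, 66 with Schwann cells, 45 with mural cells (smooth muscle and pericytes) and 41 with endothelium. Another 641 (7.37%) passed more than 1 gate, as doublets would, and were left out. The 66 Schwann-like cells were 0.759% of the kept barcodes in a sort meant to select them, yet the reporter's 2 features were counted in 83.3% of Schwann-like (median 8277 UMIs), 79.5% of myeloid (median 11452 UMIs) and 56.0% of stromal cells (median 14842 UMIs). A total of 372 barcode sequences also occurred in the GFP- library of 39531 barcodes, whose counts were not analysed here. Levels are given as CPM, the UMIs of a gene per 1,000,000 UMIs of a class. All intervals cover counting error only, and no interval covers variation between animals.

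Stromal cells were divided into adventitial (317), Gdf10 Inmt (139), parenchymal (168), Dkk2 Bmper Lsamp (158) and nerve-sheath-like (37) fibroblast-like classes and tenocyte-like cells (387). Myeloid cells were divided into resident macrophage-like (1517), MHC class II high macrophage-like (1040), lipid-associated macrophage-like (521), monocyte-like (523), cDC1-like (279), cDC2-like (240) and mature dendritic cell-like (36) classes. Classes are named by these words below. Each had at least 3 of its own markers raised. The adventitial class had all 7 of its markers raised but none among its 10 leading genes, which included Cd55. A further 368 stromal and 1878 myeloid cells fell in no class and count only in their lineage, and 8 neutrophil-like cells were too few to describe.

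The upstream sequences of 4 genes of the C1 complex are shown because the complex's recognition chains and its proteases were counted in different lineages (values below). C1qb and C1qc lie side by side with C1qa (chr4:136895916-136898844), at chr4:136880126-136886200 and chr4:136889801-136892936, and C1ra and C1s1 lie side by side at chr6:124512621-124523440 and chr6:124530344-124542392 (RefSeq, GRCm38.p6). The windows hold the 250 bases before a RefSeq start, at chr4:136886201-136886450 (minus strand), chr4:136892915-136893164 (minus strand), chr6:124512371-124512620 (plus strand) and chr6:124542360-124542609 (minus strand). Each is written 5′ to 3′ on the strand of its gene, with a match to GAGGAA on either strand (on the other strand TTCCTC), the core bound by the myeloid transcription factor PU.1, in capitals.
C1qb: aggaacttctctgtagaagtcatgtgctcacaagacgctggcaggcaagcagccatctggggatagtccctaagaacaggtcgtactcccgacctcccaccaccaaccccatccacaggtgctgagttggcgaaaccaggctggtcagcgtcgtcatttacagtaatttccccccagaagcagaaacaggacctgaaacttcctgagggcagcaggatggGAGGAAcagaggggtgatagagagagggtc
C1qc: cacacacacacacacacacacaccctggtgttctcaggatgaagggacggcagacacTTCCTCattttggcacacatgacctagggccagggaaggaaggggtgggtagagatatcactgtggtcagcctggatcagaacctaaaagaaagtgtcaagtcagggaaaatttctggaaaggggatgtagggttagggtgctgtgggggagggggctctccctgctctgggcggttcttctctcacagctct
C1ra: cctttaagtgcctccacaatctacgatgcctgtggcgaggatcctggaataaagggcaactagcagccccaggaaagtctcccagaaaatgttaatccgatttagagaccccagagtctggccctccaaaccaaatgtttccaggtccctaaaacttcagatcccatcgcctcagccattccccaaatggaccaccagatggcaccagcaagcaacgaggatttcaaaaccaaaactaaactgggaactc
C1s1: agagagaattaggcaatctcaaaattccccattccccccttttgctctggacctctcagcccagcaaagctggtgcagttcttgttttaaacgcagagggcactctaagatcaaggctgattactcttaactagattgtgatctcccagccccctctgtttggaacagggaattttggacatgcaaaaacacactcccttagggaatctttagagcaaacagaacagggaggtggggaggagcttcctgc
The motif occurred once in each of the C1qb and C1qc windows and in neither protease window. It occurred in 23.3% of all 32851 windows of that length. RefSeq promoter windows matched 21 of the 31 members (C1qa, C2, C4b, Cfb, Serping1, Colec12, Clu, Masp1, Cfi and Itgb2 were not matched), and GAGGAA was found in 5 of the 11 matched members that were higher in myeloid cells and in 1 of the 6 that were higher in stromal cells. A match describes letters in a window and not a bound site.

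The members divided by source. Of the 31, 29 had at least 30 UMIs over both lineages and could be compared. In total 13 members were at least 4-fold higher in myeloid cells, against a background of 11.8% of the 16952 genes compared: C1qa, C1qb, C1qc, Fcna, Cfp, C6, Vsig4, C3ar1, C5ar1, C5ar2, Itgam, Itgax and Itgb2. Another 11 were at least 4-fold higher in stromal cells, against a background of 18.1%: C1ra, C1s1, Masp1, C2, C3, Cfb, C7, Serping1, Clu, Cd55 and Cd59a. C4b, Colec12, Cd46, Cr1l and Cfd differed by under 4-fold, and Cfi and Fcnb had too few UMIs. The members' median log2 ratio of stromal to myeloid CPM was 0.26, beside 0.14 for all genes compared. The interval for Cd59a, 2.14 (95% interval 1.71 to 2.58) on the log2 scale, reached below the 4-fold line, and those of C6, Vsig4 and Itgax rested on 1, 3 and 2 stromal UMIs. With barcodes from 2500 UMIs the Cd59a ratio was 1.93 and its call was lost, and with each class weighted equally the Clu ratio went from 5.98 to 1.57 and its call was lost.

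**Figure D1:**
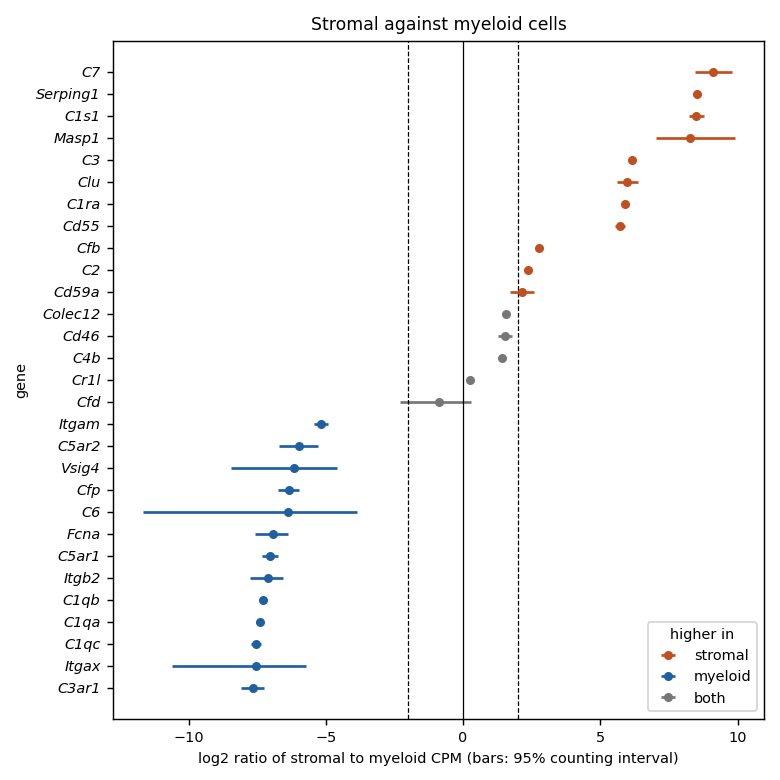
Log2 ratio of stromal to myeloid CPM (x axis) for the 29 members compared (y axis), with 95% counting intervals. Dashed lines mark a 4-fold ratio. The 13 members at the lower left were all beyond 5 log2 units toward myeloid cells, while the 11 stromal members ran from 2.14 for Cd59a to 9.09 for C7.

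RNA freed from lysed cells gives every droplet a low level of abundant transcripts. Myeloid markers that the gates had not used stood in stromal cells at 0.583% of their myeloid level, and stromal markers held out in the same way stood in myeloid cells at 0.612% of their stromal level. C1qa in stromal cells was at 0.588% of its myeloid level, C1qb at 0.648% and C1qc at 0.534%, values close to that of the held-out markers. The other 10 members called myeloid ran from 0.498% (C3ar1) to 2.77% (Itgam) in the same measure, with Cfp (1.22%), C6 (1.22%), Vsig4 (1.40%) and C5ar2 (1.60%) also at more than 1%. Serping1 in myeloid cells was at 0.273% of its stromal level and C1s1 at 0.279%, below the stromal markers. C7 (0.183%) and Masp1 (0.324%) were also below them. The other 7 members called stromal were above them in myeloid cells, with Cd59a at 22.7%, C2 at 19.5%, Cfb at 14.5%, Cd55 at 1.92%, C1ra at 1.66%, Clu at 1.58% and C3 at 1.40%. C4b and Colec12, called for neither lineage, stood at 37.3% and 34.2%.

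**Figure D2:**
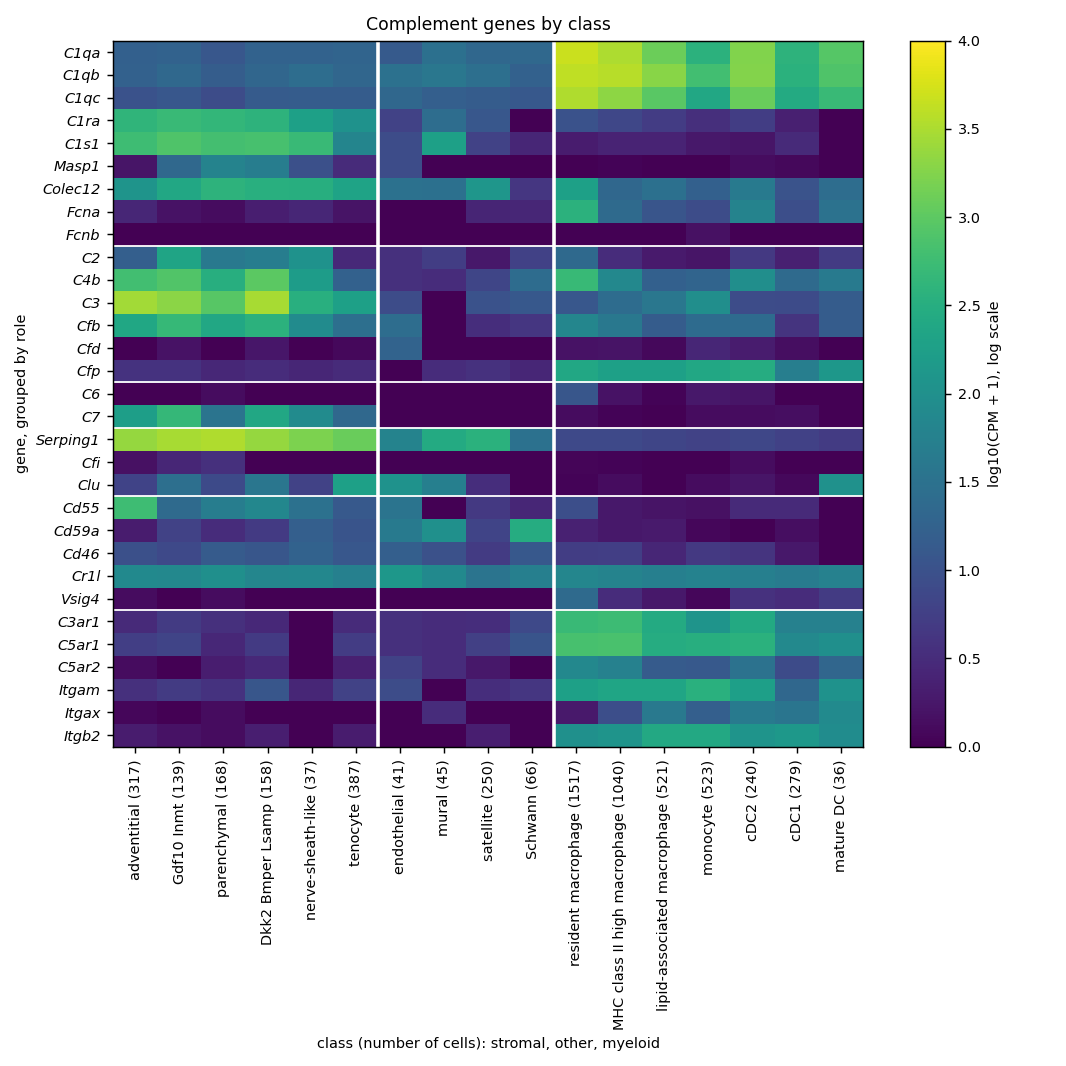
Levels of the 31 members (rows, grouped by role) in 17 classes (columns, with cell numbers), coloured by log10(CPM + 1). The C1q chains, C3ar1, C5ar1 and Itgb2 are brighter in the myeloid columns on the right than in the stromal columns on the left. C1ra, C1s1, C3 and Serping1 show the reverse. Itgax and C5ar2 are dark in some myeloid columns, and Cr1l is nearly even.

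Initiation began with C1q, the recognition subunit of the classical pathway. C1qa was counted at 4855 CPM (95% interval 4825 to 4886) in resident macrophages, 3208 CPM in MHC class II high macrophages, 1729.7 CPM in cDC2, 1269 CPM in lipid-associated macrophages, 875 CPM in mature dendritic cells, 391 CPM in cDC1 and 365 CPM (95% interval 349 to 380.2) in monocytes. The same classes held C1qb at 4154, 3679.7, 1780.3, 1916, 790.4, 354 and 609 CPM. C1qc stood at 3376, 2125, 1214, 933, 509, 275 and 251 CPM. Resident macrophages were highest for every chain. C1qa was 13.3-fold higher in resident macrophages than in monocytes (log2 ratio 3.74 (95% interval 3.67 to 3.80)), and C1qb was 6.82-fold higher (log2 ratio 2.77 (95% interval 2.72 to 2.82)).

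The 3 chains did not keep a fixed proportion. The number of C1qa UMIs per C1qb UMI was 1.17 in resident macrophages (log2 ratio 0.22 (95% interval 0.21 to 0.24)), 0.872 in MHC class II high macrophages, 0.662 in lipid-associated macrophages and 0.599 in monocytes (log2 ratio -0.74 (95% interval -0.82 to -0.66)). C1qc per C1qb was lower in the same order, from 0.813 to 0.578, 0.487 and 0.413. The intervals of these 4 classes did not overlap for either pair. In the dendritic classes C1qa per C1qb was 1.10 in cDC1, 1.11 in mature dendritic cells and 0.972 in cDC2. C1qc per C1qb was 0.777, 0.643 and 0.682 there. The proportions thus did not follow the C1qa level over all myeloid classes. Stromal cells held 0.922 C1qa UMIs per C1qb UMI (log2 ratio -0.12 (95% interval -0.31 to 0.08)), between the proportions of resident and lipid-associated macrophages.

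**Figure D3:**
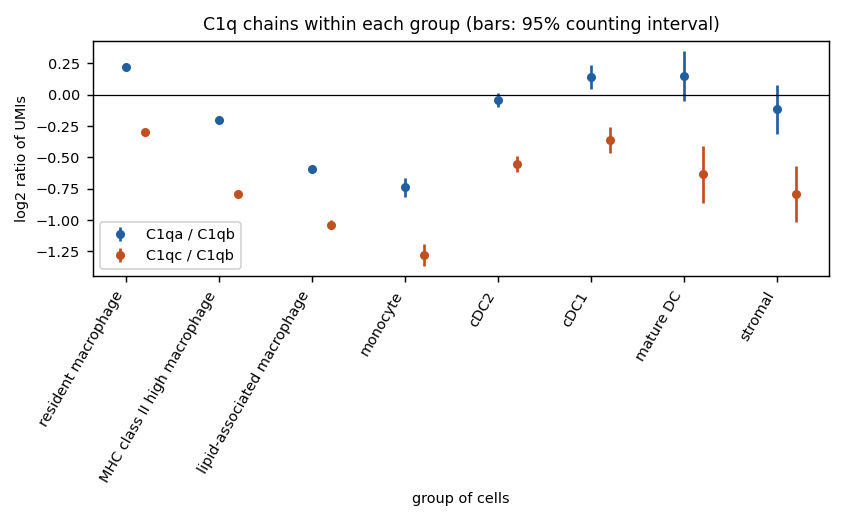
Log2 ratio of C1qa to C1qb UMIs (blue) and of C1qc to C1qb UMIs (orange) in the 7 myeloid classes and in stromal cells, with 95% counting intervals. The C1qa ratio is 0.22 in resident macrophages and -0.74 in monocytes.

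Single cells differed in how widely C1q was counted. With each cell thinned to 1000 UMIs, C1qa was counted in 97.0% of resident macrophages (unthinned 100%, median 12549 UMIs), 90.6% of MHC class II high macrophages (97.9%, median 9780 UMIs) and 15.3% of monocytes (40.9%, median 10893 UMIs), beside 2.41% of stromal cells (20.2%, median 14842 UMIs). The 10% of monocytes with most C1qa held 70.0% of that class's C1qa UMIs, and the 10% of cDC1 with most held 78.0%, whereas in resident macrophages this share was 17.3%. C1qa was thus general in resident macrophages and concentrated in a small share of monocytes and cDC1. At 5000 UMIs per cell all 3 chains were counted together in 1516 of 1517 cells (99.9%) of the resident class, in 328 of 521 cells (63.0%, 95% interval 58.6 to 67.1%) of the lipid-associated class and in 111 of 523 cells (21.2%, 95% interval 17.8 to 25.0%) of the monocyte class. The cDC2 figure was 123 of 240 cells (51.25%, 95% interval 44.7 to 57.7%), so that class was divided. The stromal figure was 12 of 1574 cells (0.762%, 95% interval 0.395 to 1.33%).

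C1ra and C1s1 encode the mouse proteases C1r and C1s, which C1q activates. C1ra was counted at 510.4 CPM (95% interval 478 to 545) in Gdf10 Inmt, 445 CPM in parenchymal, 407 CPM in adventitial, 391 CPM in Dkk2 Bmper Lsamp, 185 CPM in nerve-sheath-like and 107 CPM in tenocyte cells. C1s1 was counted at 779 CPM (95% interval 739 to 822), 632, 570.1, 687, 505 and 66.2 CPM in the same order. Every fibroblast class was above the tenocytes for both, and C1s1 was 9.43-fold higher in fibroblasts than in tenocytes (log2 ratio 3.24 (95% interval 3.08 to 3.40)), while C1ra was 3.79-fold higher. Outside the stroma, mural cells held C1s1 at 189 CPM (95% interval 151 to 233) and C1ra at 26.4 CPM (95% interval 13.6 to 46.1) from 12 UMIs, 36.8% and 7.58% of the stromal levels, beside 9.30% for the held-out stromal markers in mural cells. The number of C1s1 UMIs per C1ra UMI was 7.17 in mural cells (log2 ratio 2.84 (95% interval 1.96 to 3.85)), 1.53 in fibroblasts (log2 ratio 0.62 (95% interval 0.57 to 0.66)) and 0.616 in tenocytes (log2 ratio -0.70 (95% interval -0.90 to -0.49)). The recognition chains and the proteases of C1 were thus counted in separate lineages: 1 or more UMIs of all 3 C1q chains, C1ra and C1s1 together, at 5000 UMIs per cell, occurred in 8 of 1574 cells (0.508%, 95% interval 0.220 to 0.999%) of the stroma and 6 of 6042 cells (0.0993%, 95% interval 0.0365 to 0.216%) of the myeloid lineage. C1ra with C1s1 occurred in 943 of 1574 cells (59.9%, 95% interval 57.4 to 62.3%) of the stroma and 7 of 6042 cells (0.116%, 95% interval 0.0466 to 0.239%) of the myeloid lineage.

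Of the lectin pathway, both stromal and myeloid cells held members. Masp1, a protease that works with lectins and ficolins, was counted at 61.6 CPM (95% interval 52.7 to 71.6) in parenchymal and 48.4 CPM in Dkk2 Bmper Lsamp fibroblasts, 21.4 CPM in Gdf10 Inmt and 0.674 CPM (95% interval 0.184 to 1.72) in adventitial fibroblasts. It rested on 571 UMIs in all kept cells. Fcna, encoding ficolin A, was counted at 368 CPM (95% interval 359 to 376) in resident macrophages, 60.3 CPM in cDC2, 22.9 CPM in MHC class II high macrophages and 7.37 CPM in monocytes, and was 49.9-fold higher in resident macrophages than in monocytes (log2 ratio 5.64 (95% interval 5.22 to 6.10)). Its paralog Fcnb was counted in 3 UMIs of the kept cells, all of them in monocytes. Colec12, a membrane collectin and scavenger receptor, came from both lineages, with 378 CPM (95% interval 355 to 401) in parenchymal fibroblasts, 211 CPM in tenocytes, 117 CPM in adventitial fibroblasts, 187 CPM in resident macrophages, 15.7 CPM in monocytes and 125 CPM in satellite cells.

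The central components C3, C4b, C2 and Cfb were led by fibroblasts. C3, whose cleavage is the step that all pathways share, was counted at 2942 CPM (95% interval 2877 to 3008) in Dkk2 Bmper Lsamp, 2803 CPM in adventitial, 2029 CPM in Gdf10 Inmt, 912 CPM in parenchymal, 329 CPM in nerve-sheath-like and 189 CPM in tenocyte cells. Fibroblasts exceeded tenocytes 11.6-fold (log2 ratio 3.53 (95% interval 3.44 to 3.63)). Among myeloid cells C3 was highest in monocytes, at 95.3 CPM (95% interval 87.6 to 103), against 38.0 CPM in lipid-associated, 25.0 CPM in MHC class II high and 11.2 CPM (95% interval 9.81 to 12.8) in resident macrophages. Over these 4 classes the order for C3 was the reverse of that for C1qa. The resident macrophage level was 0.626% of the stromal C3 level, beside 0.606% for the held-out stromal markers in that class. The part of carried-over RNA in it was not tested. With each cell at 1000 UMIs, C3 was counted in 83.6% of adventitial fibroblasts (unthinned 99.7%, median 18839 UMIs), 7.65% of monocytes (53.2%, median 10893 UMIs) and 1.38% of resident macrophages (10.5%, median 12549 UMIs).

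C4b, the component that C1s cleaves first, was counted at 974 CPM (95% interval 937 to 1013) in Dkk2 Bmper Lsamp, 808 CPM in Gdf10 Inmt, 612 CPM in adventitial, 323 CPM in parenchymal, 161 CPM in nerve-sheath-like and 16.7 CPM in tenocyte cells. Resident macrophages held 496 CPM (95% interval 487 to 506), a level near that of the adventitial class (log2 ratio of resident to adventitial -0.30 (95% interval -0.36 to -0.25)) and 6.92-fold above that of MHC class II high macrophages. Monocytes held 18.2 CPM. C4b and its close paralog C4a share much of their sequence, and molecules whose reads match both copies are not counted by the program used, so the split of levels between them is uncertain. C4a itself held 76 UMIs in the kept cells and C4b held 29046.

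C2, cleaved beside C4 to form the classical C3 convertase, peaked at 219 CPM (95% interval 198 to 242) in Gdf10 Inmt fibroblasts, with 109 CPM in nerve-sheath-like, 48.0 CPM in Dkk2 Bmper Lsamp, 40.9 CPM in parenchymal, 15.0 CPM in adventitial and 1.87 CPM in tenocyte cells. The lead of Gdf10 Inmt over adventitial fibroblasts was 14.6-fold (log2 ratio 3.87 (95% interval 3.53 to 4.22)). In the myeloid lineage resident macrophages held 22.5 CPM and monocytes 0.670 CPM. Cfb, the serine protease of the alternative C3 convertase, stood at 481 CPM (95% interval 449 to 514) in Gdf10 Inmt, 366 CPM in Dkk2 Bmper Lsamp, 251 CPM in parenchymal, 243 CPM in adventitial and 27.5 CPM in tenocyte cells, and at 67.2 CPM in resident macrophages and 24.4 CPM in monocytes. C2, Cfb and C4b lie within 1 stretch of chromosome 17 (C4b chr17:34728139-34743902, Cfb chr17:34856374-34862514, C2 chr17:34862602-34882100). All 3 were highest in fibroblasts and, among myeloid classes, in resident macrophages.

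Properdin and factor D act beside factor B in the alternative pathway. Cfp encodes properdin, which stabilises the alternative convertase, and was counted at 294 CPM (95% interval 275 to 314) in cDC2, 249 CPM in resident macrophages, 249 CPM in monocytes, 189 CPM in MHC class II high macrophages, 185 CPM in lipid-associated macrophages, 130.1 CPM in mature dendritic cells and 50.8 CPM in cDC1. Resident macrophages and monocytes could not be separated (log2 ratio 0.00 (95% interval -0.08 to 0.09)). Cfd, which encodes factor D (adipsin), a major product of adipocytes, was rare, with 55 UMIs in all kept cells. Its highest class was the endothelial, at 17.8 CPM (95% interval 7.16 to 36.7) from 7 UMIs in 3 of 41 cells. Resident macrophages thus held RNA of both properdin and factor B. So did MHC class II high macrophages (Cfb 38.4 CPM) and monocytes (Cfb 24.4 CPM). The stroma held mainly factor B, and little factor D RNA was counted in any class.

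Of the 2 terminal components, C7 was stromal and C6 myeloid. C7 was counted at 459 CPM (95% interval 428 to 491) in Gdf10 Inmt, 253 CPM in Dkk2 Bmper Lsamp, 173 CPM in adventitial, 83.1 CPM in nerve-sheath-like, 33.3 CPM in parenchymal and 21.4 CPM in tenocyte cells. The 20 C7 UMIs of the whole myeloid lineage gave 0.260 CPM (95% interval 0.159 to 0.402). C7 was concentrated, since the 10% of stromal cells with most C7 held 77.3% of its stromal UMIs. C6, whose gene lies near C7 on chromosome 15 (chr15:4727067-4804045 and chr15:4987750-5063773), was counted mostly in resident macrophages, at 10.8 CPM (95% interval 9.39 to 12.3) from 216 of the 267 UMIs in all kept cells, of which 259 were myeloid and 1 stromal. Hc, the gene for C5, gave 47 UMIs in all kept cells.

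**Figure D4:**
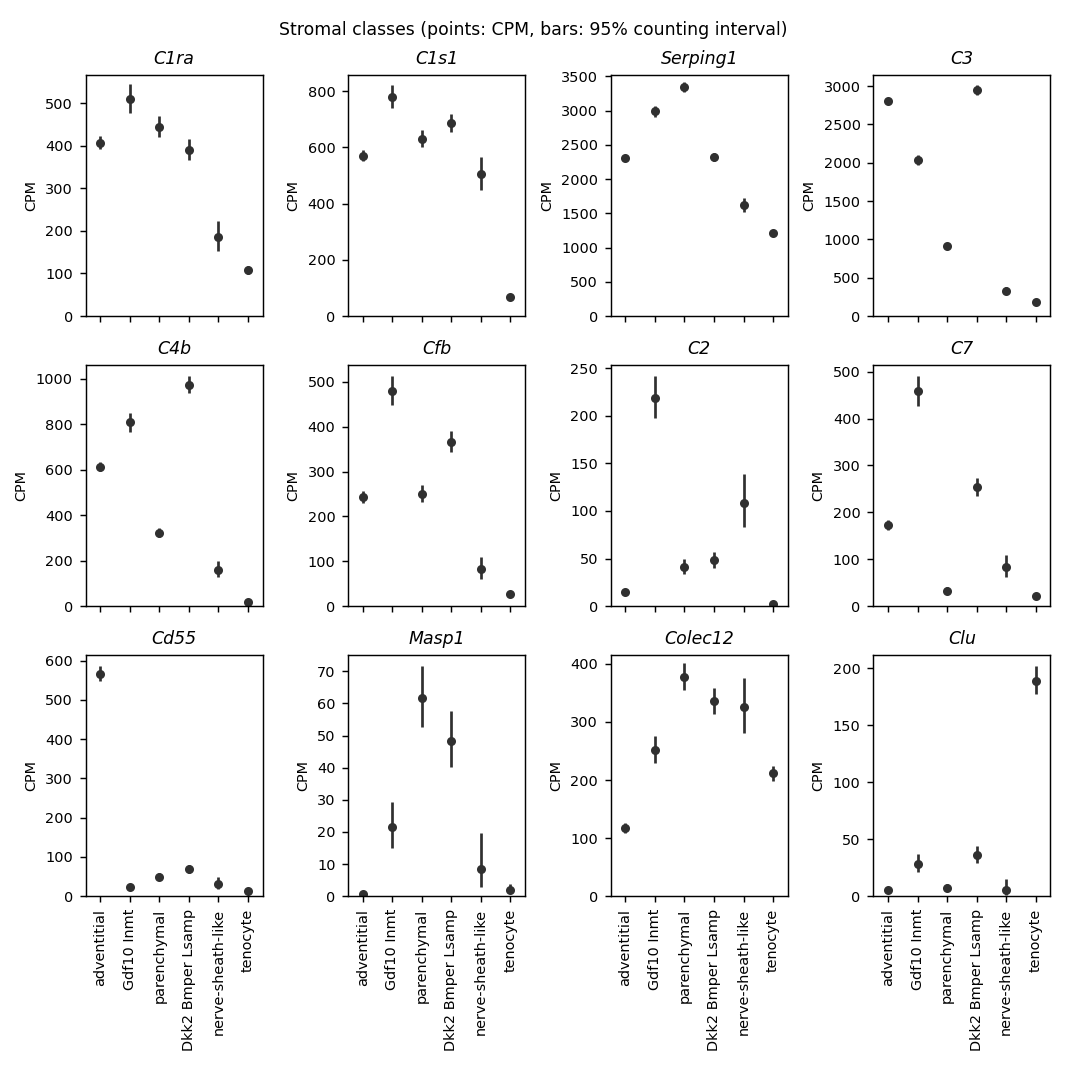
CPM (linear y axes from 0) of 12 members in the 6 stromal classes, with 95% counting intervals. Gdf10 Inmt cells lead C1ra, C1s1, C2, C7 and Cfb, Dkk2 Bmper Lsamp cells lead C3 and C4b, parenchymal cells lead Serping1, Masp1 and Colec12, adventitial cells lead Cd55 and tenocytes lead Clu.

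Serping1, the gene for C1 inhibitor, which binds and inactivates C1r and C1s, was the widest stromal member. It stood at 3345 CPM (95% interval 3277 to 3414) in parenchymal, 2992 CPM in Gdf10 Inmt, 2316 CPM in Dkk2 Bmper Lsamp, 2313 CPM in adventitial, 1616 CPM in nerve-sheath-like and 1217 CPM (95% interval 1186 to 1249) in tenocyte cells. Its lead in fibroblasts over tenocytes, 2.05-fold (log2 ratio 1.03 (95% interval 0.99 to 1.07)), was below the 4-fold line. Satellite cells held 359 CPM (95% interval 336 to 384) and mural cells 279 CPM (95% interval 233 to 332), against 29.7 CPM (95% interval 17.6 to 46.9) in Schwann-like cells. These were 16.04%, 12.5% and 1.32% of the stromal level, and the held-out stromal markers stood in the same classes at 9.74%, 9.30% and 3.86%. The part of carried-over RNA in these levels was not tested. At 1000 UMIs per cell Serping1 was counted in 78.4% of stromal cells (unthinned 96.3%, median 14842 UMIs) and 30.8% of satellite cells (90.4%, median 9018 UMIs), beside 0.745% of myeloid cells (5.61%, median 11452 UMIs). C1ra, C1s1 and Serping1 were counted together in 941 of 1574 cells (59.8%, 95% interval 57.3 to 62.2%) of the stroma. Nearly every cell with both C1 proteases thus also held their inhibitor. Most stromal cells held Serping1, so the joint count shows no particular tie to the proteases.

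Clu, encoding clusterin, which blocks insertion of the terminal complex, was highest in tenocytes among the stromal classes. Tenocytes held 189 CPM (95% interval 177 to 202), Dkk2 Bmper Lsamp 36.3 CPM, Gdf10 Inmt 28.1 CPM, parenchymal 6.88 CPM, adventitial 5.39 CPM and nerve-sheath-like 5.09 CPM, a lead of tenocytes over fibroblasts of 8.90-fold. Endothelial cells held 109 CPM (95% interval 79.2 to 147) and mural cells 52.8 CPM. The 104 CPM of mature dendritic cells came from 53 UMIs in 4 of 36 cells and describes those cells only. Cfi, the protease that degrades C3b and C4b, gave 33 UMIs in all kept cells, 22 of them in the stroma. The RNA of the fluid-phase inhibitor of C1 was therefore abundant, and little RNA of factor I was counted.

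The membrane regulators marked different cells. Cd55, which speeds the decay of C3 convertases, was counted at 567 CPM (95% interval 548 to 586) in adventitial fibroblasts, 69.9 CPM in Dkk2 Bmper Lsamp, 49.3 CPM in parenchymal, 30.5 CPM in nerve-sheath-like, 23.1 CPM in Gdf10 Inmt and 12.1 CPM in tenocyte cells. Adventitial cells were 8.11-fold above the class that followed (log2 ratio 3.02 (95% interval 2.81 to 3.24)), and endothelial cells held 33.1 CPM. At 1000 UMIs per cell Cd55 was counted in 38.2% of adventitial cells (unthinned 95.9%, median 18839 UMIs), beside 0.364% of myeloid cells (2.12%, median 11452 UMIs). Cd59a, which blocks the membrane pore, was highest outside both lineages, at 302 CPM (95% interval 259 to 349) in Schwann-like cells, 101 CPM in mural and 43.3 CPM in endothelial cells, against 4.48 CPM in the stroma. Schwann-like cells exceeded mural cells 2.98-fold (log2 ratio 1.58 (95% interval 1.10 to 2.08)). Cd55 and Cd59a have the close copies Cd55b and Cd59b, so their levels share the uncertainty of C4b.

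Cr1l, the mouse gene for Crry, which acts on C3b and C4b at the cell surface, was the only member of over 50 CPM that was nearly even: 132 CPM (95% interval 98.8 to 174) in endothelial cells, 97.1 CPM in parenchymal fibroblasts, 68.7 CPM in resident macrophages, 59.4 CPM in monocytes, 52.7 CPM in Schwann-like cells and 34.0 CPM (95% interval 27.2 to 42.0) in satellite cells, its lowest class. Endothelial and parenchymal cells could not be separated (log2 ratio 0.45 (95% interval -0.01 to 0.88)). Cd46, whose product in mice is largely confined to the testis, stayed between 0 and 17.0 CPM in every class. Vsig4, a macrophage receptor for C3b, was counted at 22.8 CPM (95% interval 20.7 to 24.9) in resident macrophages and at 0.167 CPM in monocytes.

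The anaphylatoxin receptors were myeloid. C3ar1, the receptor for C3a, stood at 544 CPM (95% interval 530.1 to 558) in MHC class II high macrophages, 504 CPM in resident macrophages, 282 CPM in lipid-associated macrophages, 269 CPM in cDC2, 116 CPM in monocytes, 57.2 CPM in mature dendritic cells and 56.2 CPM in cDC1. C5ar1, the main receptor for C5a, stood at 714 CPM (95% interval 698 to 730.1), 684, 304, 362, 319, 96.6 and 75.7 CPM in the same order. The top pair of classes differed by little for either receptor (log2 ratio 0.11 (95% interval 0.06 to 0.16) for C3ar1 and 0.06 (95% interval 0.02 to 0.10) for C5ar1). The proportion of the receptors was shifted toward C5ar1 in monocytes, with 2.76 C5ar1 UMIs per C3ar1 UMI (log2 ratio 1.47 (95% interval 1.34 to 1.59)) against 1.36 in resident macrophages (log2 ratio 0.44 (95% interval 0.40 to 0.48)). Both receptors were counted in the same cell, at 5000 UMIs per cell, in 1243 of 1517 cells (81.9%, 95% interval 79.9 to 83.8%) of the resident class and 122 of 523 cells (23.3%, 95% interval 19.8 to 27.2%) of the monocyte class. C5ar2, the second C5a receptor, ran from 7.28 CPM in cDC1 to 71.7 CPM (95% interval 68.1 to 75.6) in resident macrophages.

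The integrin receptors for C3 fragments had another order. Itgam (CD11b, the alpha chain of complement receptor 3) stood at 341 CPM (95% interval 327 to 356) in monocytes, 226 CPM in MHC class II high macrophages, 225 CPM in lipid-associated macrophages, 184 CPM in resident macrophages, 179.5 CPM in cDC2, 110.4 CPM in mature dendritic cells and 20.8 CPM in cDC1. Itgb2, the shared beta chain, was counted at 259.6 CPM (95% interval 247 to 273) in monocytes and 259.6 CPM in lipid-associated macrophages, which could not be separated (log2 ratio 0.00 (95% interval -0.09 to 0.09)), and at 133 CPM in cDC1, 119 CPM in cDC2, 117 CPM in MHC class II high macrophages, 100.3 CPM in resident macrophages and 86.7 CPM in mature dendritic cells. Itgax (CD11c, the alpha chain of complement receptor 4) was led by mature dendritic cells at 80.8 CPM (95% interval 58.0 to 109.6), followed by cDC2 at 44.2 CPM, lipid-associated macrophages at 40.8 CPM and cDC1 at 35.0 CPM, with 0.898 CPM (95% interval 0.532 to 1.42) in resident macrophages. Resident macrophages, highest for C1q, were lowest for Itgax and stood in the middle of the order for Itgam.

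**Figure D5:**
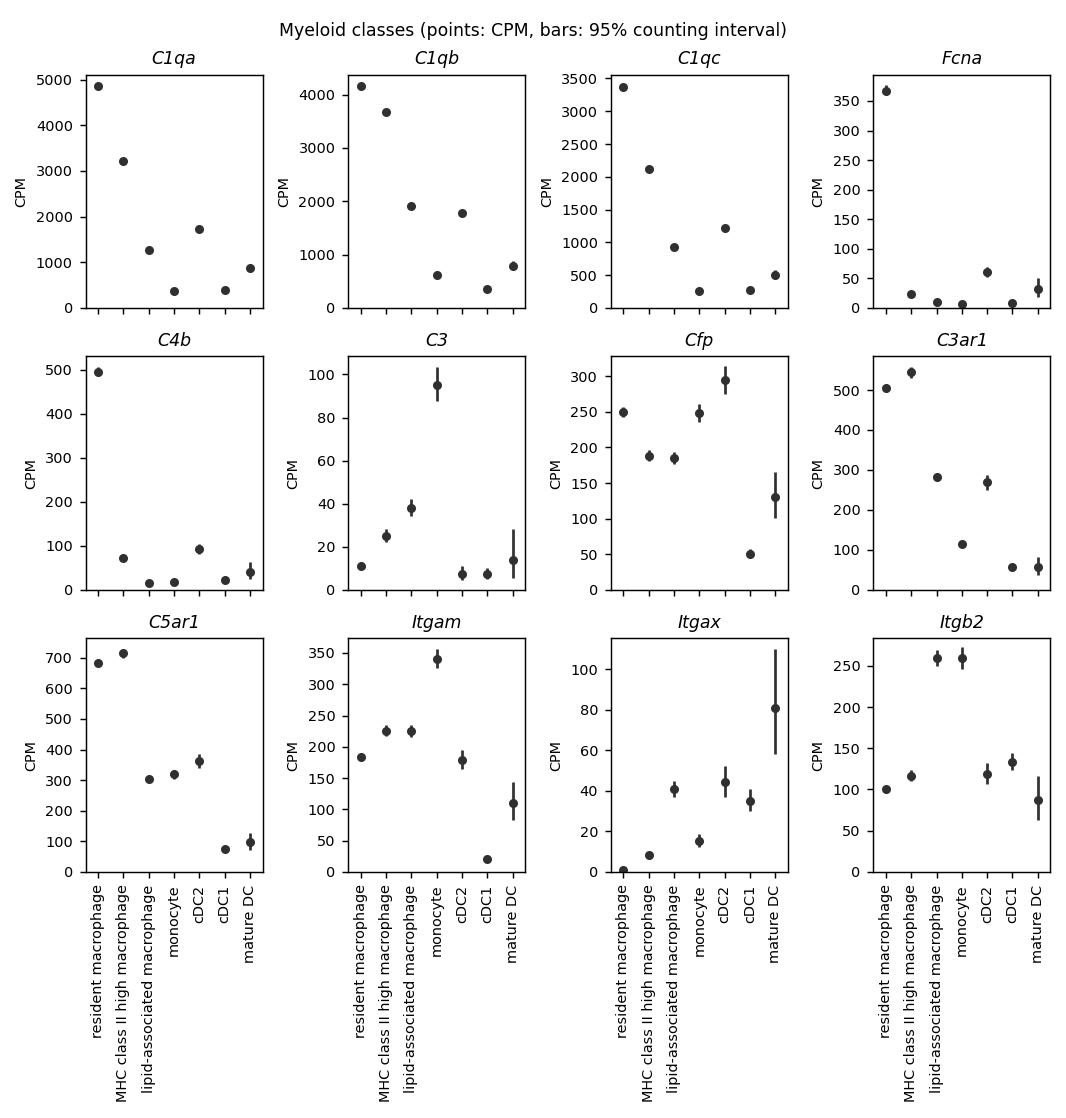
CPM (linear y axes from 0) of 12 members in the 7 myeloid classes, with 95% counting intervals. The C1q chains, Fcna and C4b are highest in resident macrophages, C3 and Itgam in monocytes, Itgb2 in monocytes and lipid-associated macrophages, and Itgax in mature dendritic cells.

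Within each lineage the split was counted by the same 4-fold rule. Between fibroblasts (stromal cells without tenocytes) and tenocytes, 22 members could be compared. Of these, 8 were higher in fibroblasts (C1s1, Masp1, C2, C4b, C3, Cfb, C7 and Cd55; background 7.01% of 13789 genes) and Clu alone was higher in tenocytes (background 3.56%). Between resident macrophages and monocytes, 23 members could be compared. Of these, 12 were higher in resident macrophages (C1qa, C1qb, C1qc, Fcna, Colec12, C2, C4b, C6, Cd55, Vsig4, C3ar1 and C5ar2; background 12.9% of 12642 genes), while C3 and Itgax were higher in monocytes (background 3.38%). The members' median log2 ratio was 2.13 in the second comparison, beside 0.35 for all genes compared. Cd55 in this comparison rested on 3 monocyte UMIs, and C2, C6 and Vsig4 on 4, 5 and 1. With cells of at least 10000 UMIs the call for C3ar1, 4.37-fold here, was lost and C1ra was called.

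Summed over the 31 members, complement RNA made up 15465 CPM in resident macrophages, 11131 CPM in MHC class II high macrophages, 8755 CPM in Gdf10 Inmt, 8623 CPM in Dkk2 Bmper Lsamp and 7971 CPM in adventitial fibroblasts. Most of the sum in both macrophage classes was C1q (C1qa 4855, C1qb 4154 and C1qc 3376 CPM in resident macrophages). Genes can be captured unequally, so the order of sums rests largely on these chains. The sum was lowest in Schwann-like cells (519 CPM) and endothelium (583 CPM). At 5000 UMIs, the median cell held UMIs of 9 members in the resident class, 8 in Gdf10 Inmt, 5 in monocytes, 3 in tenocytes and 1 in Schwann-like cells. For these 31 members the reporter's intended cells thus stood at the low end at 7 dpi, near endothelium, satellite cells (647 CPM) and mural cells (862 CPM). Cd59a was the member in which they led. Csmd1, a complement gene outside the list, was also highest in them and is given below.

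Of 29 further complement genes that are not members, 7 were at least 4-fold higher in stromal cells (C1s2, C4a, Cd55b, Vtn, Susd4, Csmd1 and Ptx3), 1 in myeloid cells (Cd93), 10 differed by less and 11 had too few UMIs, against the same backgrounds of 18.1% and 11.8%. Ptx3, a soluble pattern recognition protein that binds C1q, stood at 655 CPM (95% interval 635 to 676) in adventitial fibroblasts. Csmd1, a large membrane protein with complement control domains, was highest in Schwann-like cells, at 5943 CPM (95% interval 5750.2 to 6139.8) from 3606 UMIs in 60 of 66 cells, against 1021 CPM in Gdf10 Inmt fibroblasts. Vtn, encoding vitronectin, an inhibitor of the terminal complex, reached 222 CPM in parenchymal fibroblasts. Cd93 reached 433 CPM in endothelial cells and 379 CPM in resident macrophages, and C1qbp, a mitochondrial protein that can bind C1q, reached 163 CPM in satellite cells. Further genes that reached 10 CPM in a class were Cd55b (54.9 CPM in adventitial cells), Cd59b (19.8 CPM in Schwann-like cells), C9 (14.3 CPM in resident macrophages), Colec11 and Susd4.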

How the data were processed

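Libraries were made from GFP+ PI- cells of S100GFPtg hind limb muscle, and 1 library was analysed. Per the labels and the study's methods, the authors aligned reads and made filtered matrices with Cell Ranger, and the deposited values are raw UMI counts per gene and barcode. The matrix header names Cell Ranger 8.0.1, the submitters' processing notes name Cell Ranger 7.1.0, Seurat 4.30 and mm10, and the methods name both GRCm38 and GRCm39, so gene levels carry no coordinates and the RefSeq positions are of GRCm38.p6. No columns of per-sample values were left unused (0). The RefSeq table gave no match for 10 members.

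Barcodes with at least 5000 UMIs, over 200 genes and under 10% mitochondrial counts were gated by marker UMIs per 10000 UMIs, with no complement gene among the markers. Barcodes that passed 2 or more gates were left out as possible doublets. Counts were summed per class. Levels carry exact Poisson intervals, ratios exact conditional intervals and shares exact Clopper-Pearson intervals, all at 95%. A ratio was called past 4-fold where its interval also left 1, with at least 30 UMIs over both groups. Thinning drew 1000 UMIs per cell without replacement, or 5000 for joint counts. Since UMIs of different genes can be captured unequally, a gene was compared across classes, and pairs of genes only by how their ratio changed between classes. There was 1 library, so no p-value was computed. The members, lists and gates were chosen with earlier results of these data known, and the comparisons within lineages were added after values were seen. Members of at least 50 CPM in a class are described class by class, the others by their highest class, and further complement genes are named from 10 CPM, except 1 that is not reported here. Classes under 20 cells were counted only. Scripts ran on scipy 1.17.1, scanpy 1.11.5 (with Scrublet), pandas 2.3.3 and numpy 2.4.6 under Python 3.11.15, and the procedure was tested on simulated data. Alternatives changed the UMI minimum (2500, 10000), the mitochondrial limit (5%), the gate, the fold (2), the UMI minimum per gene (10), the weighting of cells or classes, doublet calls by Scrublet and subtraction of the carried-over level.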

Additional observations from a re-analysis of the deposited data

How the results depend on the processing

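No log2 ratio of stromal to myeloid CPM past 4-fold changed sign under any alternative run for it. Ratios between members, orders of classes, joint counts and summed levels were not recomputed. The count of members called stromal was 11 to 14 and that of members called myeloid 13 under each alternative. A fold of 2 added C4b, Cd46 and Colec12 to the stromal members, and weighting each class equally added the same 3 and removed Clu, whose myeloid level then rested on the 36 mature dendritic cells. At 2500 UMIs Cfi replaced Cd59a, and Cfi was also added under the stricter gate and with 10 UMIs per gene. At 10000 UMIs C1ra replaced C3ar1 among the 12 members higher in resident macrophages than in monocytes. Of the log2 ratios recomputed, 147 moved by less than their counting interval and 78 by more. The largest move within a setting was 6.74 under subtraction of the carried-over level (C1qa, whose stromal level was left at 0.163 CPM), 4.41 with classes weighted equally (Clu) and 2.67 under the stricter gate (Itgax), and below 2 in each of the others. Subtraction left 7 further members with no finite ratio, C1qc, C3ar1 and Itgax at 0 in stromal and C1s1, C7, Serping1 and Masp1 at 0 in myeloid cells. Of the levels recomputed, 64 kept within their interval and 11 moved beyond it, and all shares of cells but 1 moved, since a share follows the number of UMIs drawn per cell. The number of Scrublet doublets was set beforehand, as the 4745 highest scores among 34441 filtered barcodes, and 132 of these had at least 5000 UMIs. Their removal left 1573 stromal and 5994 myeloid cells. This alternative thus changed few cells and could say little about doublets. The stricter gate left 1664 stromal and 6109 myeloid cells, more than before, because fewer barcodes passed 2 gates. No paired analysis was possible because the counts are of 1 library. Depth limits Fcnb, Cfi, Cfd and C6, and classes of 36 to 66 cells. A single library cannot tell the injury, the sort, the digestion and the animal apart.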
